A study of Mus musculus with 3 samples.

Results

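SOX genes encode transcription factors that bind DNA through a high-mobility-group box related to that of the testis-determining factor SRY. The 10 genes described here, Sox1, Sox2, Sox3, Sox4, Sox5, Sox6, Sox8, Sox9, Sox10 and Sox11, were chosen by symbol for their roles in neural and glial lineages, out of 24421 gene lines in the count tables, and all 10 had a line. They were measured by RNA-seq in SB28, a mouse glioblastoma model line, in 3 libraries of 1 group. The labels give brain as the source and C57BL/6 as the genetic background, and name no treatment, culture condition or comparison group. As background, SB28 was established from a tumour induced by transposon delivery of activated NRAS, a PDGF ligand and a hairpin RNA against p53. It is a single line, and the labels do not say whether the 3 replicates came from separate cultures, so the SDs and p-values below measure only the spread between these libraries, which may be technical.

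SOX proteins fall into subgroups by sequence, and members of a subgroup often act in the same cells. SOXB1 factors (SOX1, SOX2 and SOX3) hold neural progenitors undifferentiated, SOXC factors (SOX4, SOX11 and SOX12) act in differentiating neurons and in many growing tissues, SOXD factors (SOX5, SOX6 and SOX13) lack a transactivation domain and modulate other SOX proteins, and SOXE factors (SOX8, SOX9 and SOX10) specify glia, neural crest and cartilage. In gliomas, SOX2 and SOX9 are known from stem-like and astrocytic cells, and SOX10 from cells of the oligodendrocyte lineage.

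Replicates 1, 2 and 3 held between 28990128 and 36019009 counts in genes. Levels are given as CPM, a gene's count scaled to the library's total in genes, in the order of replicates 1, 2 and 3, and as CPM per kb of the gene's exons where genes are compared with each other. Detection required at least 1 CPM in each of the 3 libraries. Replicates 1 and 2 lay close to each other and replicate 3 apart from both. Of 12746 genes compared between replicates 1 and 2, 12.3% differed at an unadjusted chi-square p below 0.05, against 66.7% between replicates 1 and 3 and 65.5% between replicates 2 and 3. Since replicates 1 and 2 differed by more than sampling noise, they were kept as separate samples.

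Of the 10 SOX genes, 6 were detected: Sox2, Sox4, Sox5, Sox6, Sox9 and Sox11. The other 4, Sox1, Sox3, Sox8 and Sox10, lay far below 1 CPM in every library. Each subgroup had at least 1 detected gene, and in SOXB1 and SOXE it was a single gene, Sox2 and Sox9. Across all gene lines, 46.6% were detected and 31.9% had 0 counts in all libraries, so 6 of 10 detected and 2 of 10 at 0 counts are shares close to those of all genes.

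**Figure D1:**
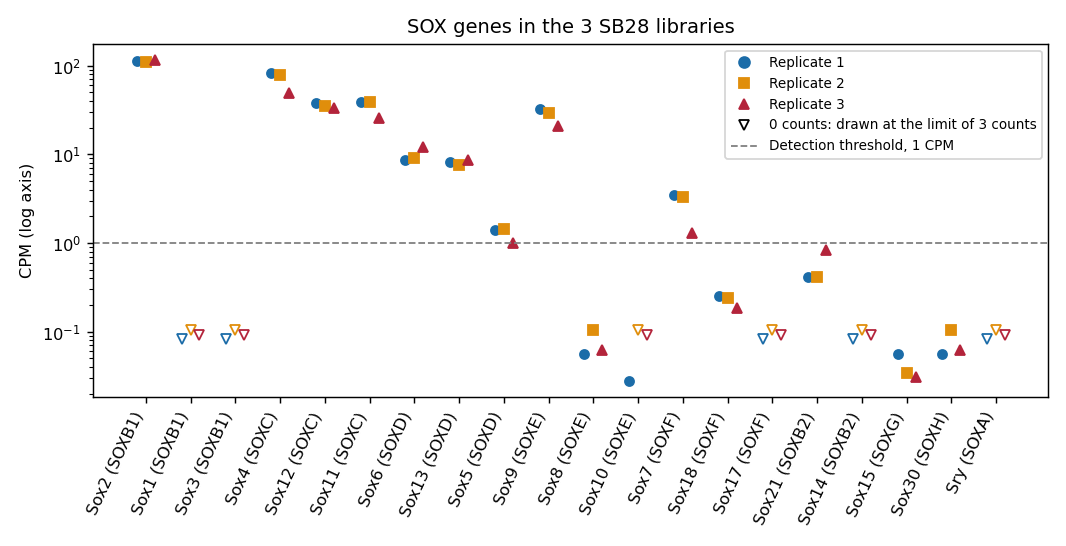
CPM (log axis) of the 20 mouse SOX genes in each of the 3 SB28 libraries, grouped by subgroup, with a dashed line at the detection threshold of 1 CPM. Open triangles stand for libraries with 0 counts and are drawn at the limit of 3 counts. Sox2 was highest in every library, and Sox1 and Sox3 had 0 counts.

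Sequence upstream of the start sites is shown for Sox2, Sox4 and Sox11, which were expressed, and for Sox8, which had 7 counts in all. Expressed and nearly silent members can thus be read side by side. Sox4 and Sox11 were both lowest in replicate 3, a pattern that Sox9 and many other genes shared. The stretches are part of RefSeq windows (GRCm38.p6) of 250 bases before to 50 after a start, 5′ to 3′ on the gene's strand, and end before the RefSeq start and the GENCODE gene start. CG dinucleotides, the usual sites of DNA methylation in mammals, are in capitals. The stretches are chr3:34649745-34649994 (plus strand, 27 CG) for Sox2, chr13:28953714-28953949 (minus, 10 CG) for Sox4, chr12:27342719-27342968 (minus, 17 CG) for Sox11 and chr17:25570687-25570936 (minus, 18 CG) for Sox8. That of Sox8 also holds exon bases of the antisense noncoding gene 2810468N07Rik.
Sox2: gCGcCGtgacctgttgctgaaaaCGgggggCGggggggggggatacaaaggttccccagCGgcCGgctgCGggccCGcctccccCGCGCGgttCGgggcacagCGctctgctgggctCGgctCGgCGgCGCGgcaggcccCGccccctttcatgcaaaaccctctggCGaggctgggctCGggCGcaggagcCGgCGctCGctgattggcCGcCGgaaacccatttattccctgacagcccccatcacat
Sox4: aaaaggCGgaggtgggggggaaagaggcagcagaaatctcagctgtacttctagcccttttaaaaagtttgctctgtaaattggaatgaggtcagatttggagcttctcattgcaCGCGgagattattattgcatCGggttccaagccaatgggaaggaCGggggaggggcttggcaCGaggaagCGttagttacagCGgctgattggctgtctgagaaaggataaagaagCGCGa
Sox11: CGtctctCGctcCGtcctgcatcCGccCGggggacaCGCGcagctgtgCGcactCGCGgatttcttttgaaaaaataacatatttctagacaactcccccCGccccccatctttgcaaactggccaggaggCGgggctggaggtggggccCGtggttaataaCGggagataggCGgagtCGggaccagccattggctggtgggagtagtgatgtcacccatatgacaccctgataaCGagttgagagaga
Sox8: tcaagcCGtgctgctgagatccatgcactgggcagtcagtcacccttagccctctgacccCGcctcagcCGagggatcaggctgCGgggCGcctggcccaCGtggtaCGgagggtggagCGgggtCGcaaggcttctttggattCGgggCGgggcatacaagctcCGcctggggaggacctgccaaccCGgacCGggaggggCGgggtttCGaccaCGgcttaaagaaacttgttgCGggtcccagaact

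CG dinucleotides were more frequent than the median in the windows of both expressed and unexpressed members, but not in those of all members. The whole windows of Sox2, Sox4 and Sox11 held 27, 12 and 21, and those of Sox1 and Sox8 held 37 and 21, against a median of 7 over 32851 mouse windows of the same length. The ratio of observed to expected CG was 0.819 for Sox2, 0.679 for Sox4 and 0.817 for Sox11. It was 1.07 for Sox1, above that of 97.0% of all windows, and 0.647 for Sox8. Sox5 had 1 window, with 3 CG, and Sox6, also expressed, had 6 with between 2 and 13, and in both genes windows lay inside the annotated gene. The SOX core motif AACAAT, read on both strands, occurred in 10.7% of all windows and, among the 12 windows of the 7 members, in 1 window of Sox6, where it was found 2 times. Its absence elsewhere says only that these letters are not in these windows. Methylation and binding were not measured here.

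In the SOXB1 subgroup, Sox2 stood alone. Sox2, a pluripotency and neural stem cell factor, reached 112, 109.9 and 116 CPM, or 113 ± 2.85 (SD, n = 3), from 4040, 3187 and 3772 counts. The 3 libraries were nearly level, with the highest 1.06-fold above the lowest. Sox1 and Sox3, which share the role of Sox2 in neural progenitors, had 0 counts in all 3 libraries. A count of 0 allows up to 3 counts, or 0.0833, 0.103 and 0.0919 CPM in the 3 libraries, which covers counting error only. Against a limit of 3 counts over the 3 libraries together, Sox2 was at least 8612-fold higher than Sox1 per kb and at least 3681-fold higher than Sox3. Sox2 is an intronless gene on chromosome 3 at 34650405 to 34652461 (GRCm38), Sox1 lies on chromosome 8 at 12395295 to 12400126 and Sox3 on chromosome X at 60891366 to 60893430, each with a single exon.

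Sox2 lies within the long noncoding gene Sox2ot, which is transcribed from the same strand and spans 34104270 to 34682619. Sox2ot reached 15.0, 13.8 and 18.1 CPM, and its counts were 11.8%, 11.2% and 13.5% of the sum of both genes. Replicate 3 was highest for it, with 1.32-fold between the highest and lowest library (adjusted p = 7.77e-05, chi-square test between libraries with Benjamini-Hochberg adjustment over 12737 genes). The GENCODE exons of Sox2 and Sox2ot share 0 bases. The authors' gene models are not given in the sources used here, so a few reads of either gene could still have been set aside as ambiguous.

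Both SOXC members were detected. Sox4, a factor of progenitors and many tumours, reached 82.8, 78.3 and 48.8 CPM (70.0 ± 18.5, n = 3). Sox11, its partner in immature neurons, reached 39.1, 39.2 and 25.8 CPM (34.7 ± 7.73, n = 3). For both genes replicate 3 was lowest, and replicates 1 and 2 were close to each other. Sox4 exceeded Sox11 per kb by 3.67-, 3.46- and 3.28-fold. The log2 ratio of 1.79 ± 0.08 was larger than the spread between libraries. Both are single-exon genes, Sox4 on chromosome 13 at 28948919 to 28953713 and Sox11 on chromosome 12 at 27334264 to 27342574. Of the exon bases of Sox4, 2616 (54.6%) also lie in the lincRNA Gm26735 on the opposite strand. No strand setting is stated for the counts and Gm26735 has no line under that symbol, so reads from it could be counted as Sox4.

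The SOXD members were low, and Sox6 stood above Sox5. Sox6, which acts with Sox5 in cartilage and in oligodendrocyte progenitors, reached 8.69, 9.07 and 12.1 CPM (9.95 ± 1.85, n = 3), with replicate 3 highest. Sox5 reached 1.42, 1.45 and 1.01 CPM from 51, 42 and 33 counts, so that in replicate 3 it only just passed the threshold. Per kb, Sox6 exceeded Sox5 by 5.90-, 6.01- and 11.4-fold, and the log2 ratio of 2.89 ± 0.54 was larger than the spread. Sox5 lies on chromosome 6 at 143828425 to 144781977 and Sox6 on chromosome 7 at 115470872 to 116038796. Their exons in the annotation sum to 14376 and 14832 bases, while the longest transcripts have 7243 and 8668 bases in 15 and 16 exons. With the longest transcript, the level of Sox5 was 0.178 in place of 0.0899 CPM per kb and that of Sox6 1.15 in place of 0.671. The antisense gene Sox5os1 shares 1330 exon bases with Sox5 and has no line of its own, and Sox5os3 had 0 counts.

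In the SOXE subgroup Sox9 was the gene expressed. Sox9, which drives cartilage and astrocyte formation, reached 32.1, 29.1 and 20.8 CPM (27.3 ± 5.88, n = 3), with replicate 3 lowest. Sox8, a close relative of Sox9, had 2, 3 and 2 counts, and Sox10, the defining factor of oligodendrocytes, Schwann cells and melanocytes, had 1 count, in replicate 1. Per kb over the pooled libraries, Sox9 exceeded Sox8 by 289-fold (exact Clopper-Pearson 95% interval 139.9 to 718) and Sox10 by 1977-fold (354 to 78104); both intervals cover counting error only. The upper bound for Sox10 is wide because it rests on a single count. Sox9 lies on chromosome 11 at 112782224 to 112787760 with 3 exons, Sox8 on chromosome 17 at 25565892 to 25570686 and Sox10 on chromosome 15 at 79154908 to 79165240. Sox8 shares 329 exon bases (10.6%) with the antisense gene 2810468N07Rik, which had 10, 9 and 5 counts on its own line. No strand setting is stated, so reads in the shared bases could have been set aside as ambiguous.

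The remaining 10 SOX genes had 3 detected genes, against 6 of the 10 members, and 3 at 0 counts in all libraries (Sox14, Sox17 and Sry). Sox12, the SOXC gene outside the 10, reached 37.5, 35.1 and 33.4 CPM, near Sox11 in CPM. Sox13, the SOXD gene outside the 10, reached 8.11, 7.55 and 8.58 CPM. Sox7, a SOXF gene of endothelium, reached 3.50, 3.31 and 1.29 CPM, and its SOXF relative Sox18 stayed at 0.225 ± 0.0359 CPM. The SOXB2 gene Sox21, which opposes SOXB1 factors in neural progenitors, stood at 0.416, 0.414 and 0.827 CPM. Sox15 and Sox30 had 4 and 7 counts in all.

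Together the 20 SOX genes held 326, 314 and 269 CPM. Sox2 took between 34.4% and 43.0% of the SOX counts (37.5% ± 4.84, n = 3), highest in replicate 3, and 56.4%, 57.3% and 65.6% of the SOX signal per kb. Since its own level was nearly flat, the larger share in replicate 3 went with the lower Sox4, Sox9 and Sox11 there. The SOXC genes Sox4, Sox11 and Sox12 held 48.9%, 48.6% and 40.2% of the counts and 31.4%, 31.0% and 24.3% per kb, so per kb Sox2 led them in every library, and by counts they led Sox2 in replicates 1 and 2 but not in replicate 3. SOXE held 8.98% ± 1.09 of the counts and SOXD 6.47% ± 1.39 (n = 3).

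**Figure D2:**
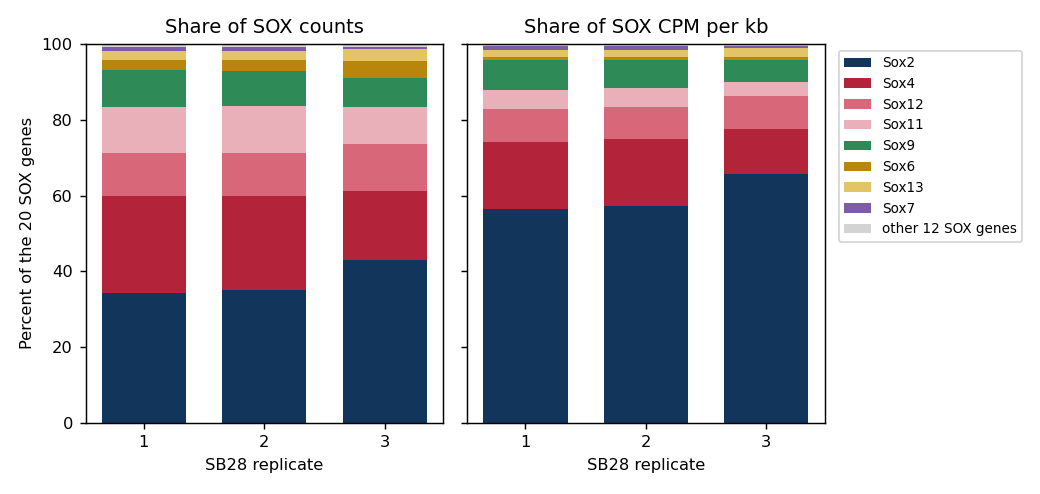
Share of each SOX gene among all 20 SOX genes (percent, bars from 0 to 100) in each SB28 library, by counts (left) and by CPM per kb (right). Sox2 held between 34.4% and 43.0% by counts, highest in replicate 3, and was the largest segment in all 3 libraries on both scales.

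Ordered by CPM per kb, the detected SOX genes ran Sox2 (54.7 ± 1.38), Sox4 (14.6 ± 3.85), Sox12 (7.94 ± 0.463), Sox9 (6.61 ± 1.42), Sox11 (4.18 ± 0.930), Sox13 (1.87 ± 0.119), Sox7 (0.818 ± 0.372), Sox6 (0.671 ± 0.125) and Sox5 (0.0899 ± 0.0170). Sox2 lay above 92.8% of all detected genes in CPM per kb, Sox4 above 69.0%, Sox9 above 46.2%, Sox11 above 33.5% and Sox6 above 5.73%. A ratio within libraries was called larger than the spread when all 3 libraries lay on the same side of 0 on the log2 scale and the mean exceeded 2 SD. Ratios use a pseudocount of 0.5 counts. By this rule Sox2 stood above Sox4, by 3.16-, 3.27- and 5.52-fold (log2 ratio 1.94 ± 0.45). Without length correction the log2 ratio of Sox4 to Sox2 was −0.72, no longer beyond the spread.

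The steps from Sox9 to Sox11 (0.66 ± 0.08), from Sox11 to Sox13 (1.13 ± 0.43) and from Sox6 to Sox5 also exceeded the spread. The step from Sox4 to Sox12 (0.84 ± 0.35) did so with all libraries, but not without replicate 1 (0.74) or without replicate 2 (0.74), and that from Sox11 to Sox13 did not without replicate 1 (1.03) or with replicates 1 and 2 averaged (1.01). Neighbours that did not differ beyond their spread were Sox12 and Sox9 (0.29 ± 0.25), Sox13 and Sox7 (1.32 ± 0.88), and Sox7 and Sox6 (0.18 ± 1.06). Sox9 stood above Sox11 only per kb: without length correction Sox11 was higher, with a log2 ratio of Sox9 to Sox11 of −0.34. Across subgroups, Sox2 exceeded Sox9 by 7.01-, 7.60- and 11.2-fold (3.07 ± 0.36), and Sox4 exceeded Sox9 by 2.22-, 2.32- and 2.03-fold (1.13 ± 0.10). The exact two-sided sign-flip permutation p was 0.25 for every ratio named here except Sox7 to Sox6, where it was 1. With 3 libraries 0.25 is the smallest p this test can give, so no ratio can reach 0.05.

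**Figure D3:**
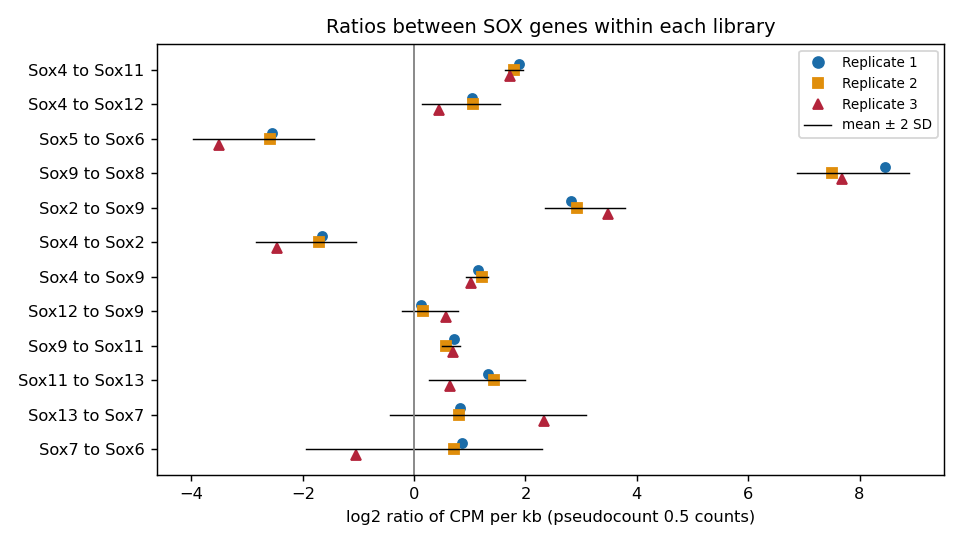
Log2 ratio of CPM per kb between pairs of SOX genes within each library (points), with the mean ± 2 SD over 3 libraries (lines) and 0 marked. The lines for Sox12 to Sox9, Sox13 to Sox7 and Sox7 to Sox6 cross 0, and Sox7 to Sox6 changes side in replicate 3.

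Between libraries, 4 of the 6 tested members varied beyond counting noise (chi-square test on TMM-scaled counts, Benjamini-Hochberg over the 12737 genes that averaged 10 counts or more). Folds between libraries are on the same scale. Sox4 (adjusted p = 9.12e-68, 1.69-fold from highest to lowest library), Sox11 (1.65e-23, 1.51-fold) and Sox9 (6.41e-18, 1.54-fold) were lowest in replicate 3. Sox6 (1.73e-05, 1.40-fold) was highest there. Sox2 (0.0747, 1.06-fold) and Sox5 (0.296, 1.42-fold, from 33 to 51 counts) did not pass, and for Sox5 the counts are few. Sox2 passed when replicate 1 was left out (0.0279).

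Across all genes tested, 65.7% varied, 31.5% varied with replicate 3 lowest and 33.1% varied with replicate 3 highest, so 4 of 6 is a share near that of all genes. The median fold from highest to lowest library over all genes was 1.23, and Sox4, Sox9 and Sox11 had larger folds than 85.0%, 79.2% and 77.6% of them, against 10.7% for Sox2. Without replicate 3, 0 of the 6 varied by the chi-square test (2 at an unadjusted p below 0.05), and 2.01% of all genes did. The test compares libraries with counting noise and says nothing about conditions. In bulk RNA, fewer cells expressing a gene and less of its RNA per cell cannot be told apart.

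Among the other SOX genes, Sox7 was lowest in replicate 3 by 2.70-fold (adjusted p = 4.37e-08) and Sox12 by 1.12-fold (0.0348), while Sox13 (0.387) did not pass. Some other measures moved with replicate 3, in both directions. Reads in the summary lines, which hold reads not assigned to a gene, made up 15.2%, 15.2% and 17.1% of all counted reads. The summed CPM of 9 microglia and macrophage markers was 81.4, 74.8 and 45.3, with 2 of 9 detected, Tmem119 and Cd68, and with Aif1 and Adgre1 at 0 counts. Tmem119 alone (75.6, 69.7 and 41.2 CPM) held most of that sum. The summed CPM of 10 endothelial genes was 503, 496 and 379, with 5 of 10 detected and Tie1 and Cldn5 at 0 counts. This list went both ways: of its 4 varying genes, Cdh5 (380, 371 and 303 CPM) and Flt1, which hold most of the sum, were lowest in replicate 3. The other 2, Esam (10.8, 11.8 and 20.7 CPM) and Kdr (1.11, 1.07 and 2.64 CPM), were highest there. The sum over 14 astrocyte genes was 872, 877 and 741, with 8 of 14 detected and Gfap and Aqp4 at 0 counts. Of its 7 varying genes, 6 were lowest in replicate 3 and 1, Nfib, was highest. By contrast, the sums of oligodendrocyte progenitor genes (396, 425 and 433) and of neural crest genes (397, 390 and 400) were highest in replicate 3. Vcan (287, 314 and 339 CPM) held most of the progenitor sum. Of the 3 varying progenitor genes, Vcan and Nkx2-2 were highest in replicate 3, and Pdgfra (56.5, 58.5 and 42.2 CPM) was lowest. Of the 6 varying neural crest genes, 3 were lowest in replicate 3 and 3 highest. The sums of SOXB1 partners and neural stem genes (565, 556 and 523) and of genes downstream of SOXC (137, 130 and 116) were lowest in replicate 3. The same held for the sums of cartilage genes (131, 133 and 96.9) and myelinating oligodendrocyte genes (50.3, 50.2 and 43.5). Of the 2 varying cartilage genes, Col11a1 (68.5, 66.6 and 22.3 CPM) was lowest in replicate 3 and Runx2 (61.0, 64.9 and 72.9 CPM) was highest. Of the 3 varying myelinating genes, 2 were lowest there and 1 highest. The part of these measures in the SOX differences was not tested.

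**Figure D4:**
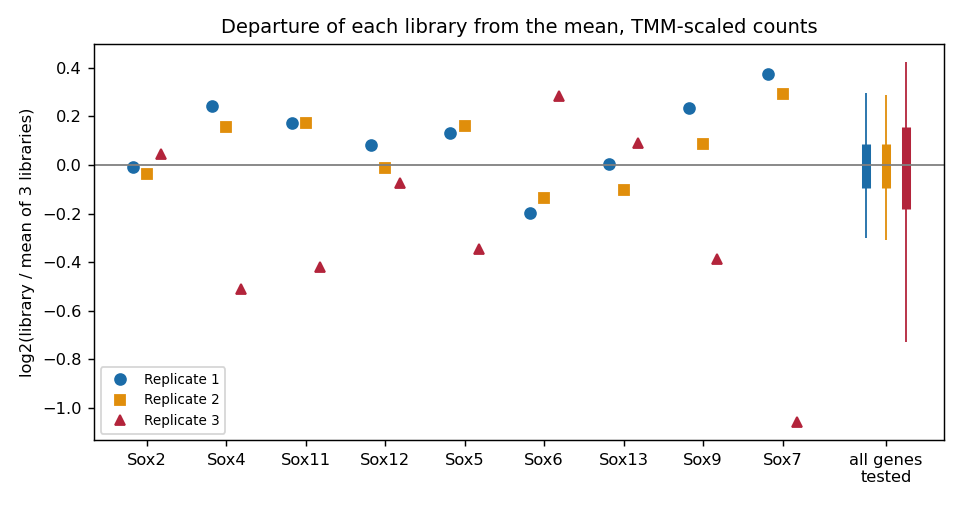
Log2 of each library's TMM-scaled count over the mean of the 3 libraries for the 9 detected SOX genes (points), beside the 25th to 75th (thick) and 5th to 95th (thin) percentiles of all genes tested. Replicate 3 lay lowest for Sox4, Sox11, Sox9, Sox5, Sox12 and Sox7 and highest for Sox6, Sox13 and Sox2.

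Genes tied to SOX function were read from 9 lists of 113 genes, of which 45 (39.8%) were detected, against 46.6% of all gene lines. The median of log2(CPM per kb + 1) was 0.43 for the 10 SOX members and 0.29 for all gene lines with a length. Neural crest, Schwann cell and melanocyte genes had the highest list median, 2.06, and astrocyte genes followed at 0.76. Endothelial genes stood at 0.24 and SOXB1 partners and neural stem genes at 0.12, and the other 5 lists lay at 0.055 or below.

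Among 14 partners of SOXB1 factors and neural stem genes, 6 were detected. Nes, the progenitor filament nestin, led at 427 ± 20.2 CPM, followed by the POU factor Pou3f3 (43.2 ± 5.90), the Notch effector Hes1 (41.5 ± 8.77) and the chromatin remodeller Chd7 (30.8 ± 4.41). Pou3f2, a known DNA-binding partner of SOX2 in neural cells, was just above threshold at 1.06, 1.31 and 1.59 CPM. The lens and neural factor Pax6 stayed at 0.307 ± 0.133 CPM, and Pou5f1, the SOX2 partner of pluripotent cells, and Hes5 had 0 counts.

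Of 12 genes, mostly neuronal, that SOXC factors are known to act on or precede, 4 were detected. Tead2, a TEAD factor and known target of SOX4 and SOX11 rather than a neuronal marker, led at 100.3 ± 7.12 CPM. It was followed by the tubulin Tubb3 (19.7 ± 2.16), Map2 (4.18 ± 1.31) and Elavl4 (2.61 ± 0.666). The migrating-neuron gene Dcx and the factors Prox1 and Neurog2 had 0 counts, as did the mature neuron marker Rbfox3.

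Cartilage genes, among them the classical targets of SOX9 with SOX5 and SOX6, were mostly below threshold, with 2 of 14 detected. They were the osteoblast and hypertrophic cartilage factor Runx2 (66.3 ± 6.07 CPM) and the collagen Col11a1, which stood at 68.5, 66.6 and 22.3 CPM with replicate 3 lowest. Col2a1, the defining SOX9 target, reached 0.283 ± 0.149 CPM from 28 counts, and Matn3 0.766 ± 0.0643. The aggrecan gene Acan had 3 counts in all, and Col9a1, Matn1, Cnmd (listed under its older symbol Lect1) and Col10a1 had 0.

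Oligodendrocyte genes are read beside Sox10, which had 1 count. Of 10 progenitor genes, 4 were detected: Vcan (313 ± 25.8 CPM), Pdgfra (52.4 ± 8.87), Cspg4 (46.9 ± 2.10) and Nkx2-2 (5.14 ± 1.40). Olig1, Olig2 and Ptprz1 had 0 counts. Per kb, Sox9 was at least 546-fold higher than Olig2, the factor that acts with SOX10 in this lineage. Of 11 genes of myelinating cells, 3 were detected, Tcf7l2 (23.9 ± 0.246), Cnp (19.2 ± 3.62) and Zfp488 (2.27 ± 0.695). Myrf, a partner of SOX10 in myelination, lay at 1.69, 1.83 and 0.705 CPM, below threshold in replicate 3 only, and Nkx6-2, Mag, Mobp and Ugt8a had 0 counts.

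Sox9 and Sox10 also act in the neural crest and its derivatives. Of 19 genes of this list, 11 were detected, led by Ets1 (99.2 ± 2.29 CPM), Tfap2b (52.3 ± 11.8), Msx1 (50.5 ± 13.1) and the mesenchymal regulator Twist1 (38.3 ± 3.83). Snai1, Snai2, Tfap2a, Pax3, Msx2, Egr2 and Mitf made up the rest of the detected ones. The melanocyte enzyme Dct, the endothelin receptor Ednrb and Foxd3 had 0 counts. Of 14 astrocyte genes, 8 were detected, led by the connexin Gja1 (479 ± 56.4), the nuclear factors Nfib (152 ± 6.99) and Nfix (114 ± 6.90) and the glutamine synthetase gene Glul (59.8, 60.2 and 47.9). Nfia, a partner of SOX9 in early gliogenesis, was low at 3.02 ± 0.433, and Gfap and Aqp4 had 0 counts.

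Endothelial genes are read beside the SOXF gene Sox7. Of 10, 5 were detected, led by Cdh5 (351 ± 42.2 CPM), Flt1 (95.8, 98.4 and 39.8), Esam (14.4 ± 5.44) and Egfl7 (13.2 ± 0.689). Pecam1 had 6 counts in all, and Sox17 had 0. Of the 9 microglia and macrophage markers, Tmem119 (75.6, 69.7 and 41.2 CPM) and Cd68 (4.43 ± 0.964) were detected, while the leukocyte gene Ptprc (0.249 ± 0.100) and the receptor gene Csf1r (0.201 ± 0.102) were below threshold.

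**Figure D5:**
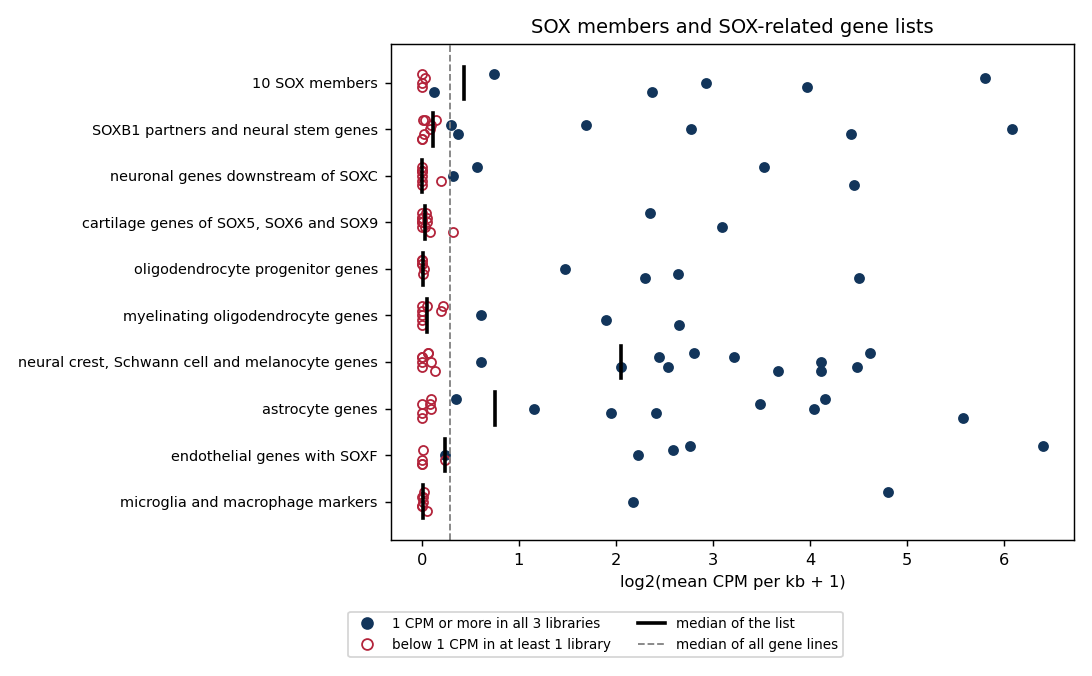
Log2(mean CPM per kb + 1) of each gene of the 10 SOX members and of 9 SOX-related lists, filled where detected in all 3 libraries. Black bars mark list medians and the dashed line marks the median of all gene lines (0.29); the neural crest list has the highest median (2.06).

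Among 132 genes of these lists and the SOX genes, the nearest in level over the 3 libraries were found by the smallest value of the largest log2 difference in CPM per kb. For Sox2 they were Nes (0.34) and Gja1 (0.48), for Sox4 the homeobox gene Msx1 (0.17) and Glul (0.50), and for Sox9 Pou3f3 (0.29) and the crest factor Tfap2a (0.33). For Sox11 they were Cspg4 (0.26) and Cd68 (0.31), for Sox6 Zfp488 (0.50) and Mitf (0.87), and for Sox5 Fabp7 (0.44) and Slc1a3 (0.67). Fabp7 (0.132 ± 0.0377 CPM) and Slc1a3 (0.555 ± 0.0296 CPM) were themselves below the detection threshold. With 3 libraries of 1 group such nearness is likeness of level, and no correlation was computed.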

How the data were processed

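Total RNA (1 µg each) went into TruSeq RNA libraries, per the labels' protocols. For every library the authors deposited unnormalized counts by gene symbol. The 5 closing lines, for reads without a gene (15.2% to 17.1% of the reads counted), stayed out. Named in the submitters' processing notes are HTSeq, mm10 and Bowtie2 2.2.4. Their roles, options, gene models and strand setting are not given in the sources used here. Counters of this kind drop reads at more than 1 place or in more than 1 gene.

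CPM was computed over counts in genes. Lengths and positions came from GENCODE M21 (GRCm38), matched by symbol or RefSeq synonym for 24024 of 24421 lines; the antisense partners named are from the same annotation. TMM factors came from edgeR 4.0.16 and size factors, as an alternative, from DESeq2 1.42.0 (R 4.3.3); other steps used Python 3.11.15 with scipy 1.17.1, numpy 2.4.6, matplotlib 3.10.9 and pandas 2.3.3. With 1 group no test between conditions was possible. Between libraries, a chi-square test of the 3 counts per gene was adjusted by Benjamini-Hochberg at 0.05 over the 12737 genes that averaged 10 counts or more, and tested on simulated data. Alternatives were other scalings, lengths, thresholds, a pseudocount of 5 and leaving out each replicate.

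The members and gene lists were chosen with earlier results of these data known. Named genes were all SOX genes, overlapping genes, those of the fixed pairs, the 4 genes of highest mean CPM in each list, those at 0 counts, and the 2 nearest to each detected member. Pou3f2, Pax6, Acan, Nfia, Pecam1, Kdr and the rest of the detected neural crest genes were added after their values were seen. PCR copies are not told apart from molecules, so limits and intervals cover counting error only. Exome data of the line were not analysed here, and some genes of the lists are counted but not reported by name.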

Additional observations from a re-analysis of the deposited data

How the results depend on the processing

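Across 252 alternative values of 51 results, 221 were classed as unchanged. For ratios and p-values this meant the same direction and side of the threshold. Levels had to move by less than the SD, and lower bounds not at all. Some of the unchanged values could not have changed. For Sox2, Sox4, Sox7, Sox9, Sox11 and Sox12 the longest transcript is as long as the summed exons. With the longest transcript, their levels and the ratios between them were therefore the same by construction. Counts of genes were also classed as unchanged after a moderate move, such as from 45 to 32 detected list genes at 5 CPM. The detected members numbered between 5 (at 5 CPM) and 7 (at least 1 count in all libraries), against 6. Without length correction the log2 ratio of Sox9 to Sox11 was −0.34 and that of Sox4 to Sox2 was −0.72, no longer beyond the spread. For Sox7 to Sox6 it was −1.99 without length, −0.60 with the longest transcript and −0.13 with replicates 1 and 2 averaged, against 0.18. With replicates 1 and 2 averaged, Sox4 to Sox12 (0.74) and Sox11 to Sox13 (1.01) were no longer beyond the spread. Leaving out each library in turn gave 0.74 to 1.04 for Sox4 to Sox12, 0.98 to 1.37 for Sox11 to Sox13, 0.14 to 0.37 for Sox12 to Sox9, 0.81 to 1.58 for Sox13 to Sox7 and −0.16 to 0.79 for Sox7 to Sox6. The call for Sox11 to Sox13 was lost without replicate 1, while Sox12 to Sox9, Sox13 to Sox7 and Sox7 to Sox6 exceeded the spread without replicate 3. The varying members numbered 0 to 5 on leaving out a library, with 0 by the chi-square test (2 at an unadjusted p below 0.05) without replicate 3. The causes were not tested. With 2 libraries the rule rests on a single difference. Counts under 10 in all, as for Sox8 and Sox10, limit those levels to orders of size. No paired analysis was possible because the series has 1 group.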
